A study of Homo sapiens with 9 samples.

Results

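The genes described here are 41 genes of the G2 phase of the cell cycle and of mitosis, taken from a list of gene symbols. The list was chosen with earlier results of these data known, so counts over it are descriptions and not a test. Each gene was represented by its brightest probe set among those annotated to that gene alone. All 41 had such a probe set and all 41 lay above the filter on low signals, so that they were 41 of the 12505 genes tested, out of 19775 genes with a probe set of their own.

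RNA from SW1783 cells was measured on 9 Affymetrix expression arrays, and the study's question was which genes each transfected miRNA changed. SW1783 is an established human glioma cell line, grown here without any other alteration named in the labels. Cells received miR-376a*G, miR-376a*A or a control miRNA (miR-control) as synthetic duplexes at 50 nM with Lipofectamine RNAiMAX, and RNA was taken after 24 h. Each group had 3 arrays, labelled as biological replicates, while the sources used here do not say what separated the replicates, so p-values measure the spread between these samples only. The miR-376a*A duplex carries the genome-encoded adenosine, and miR-376a*G carries guanosine in its place, which pairs as does the inosine that A-to-I RNA editing leaves. Every group, the control included, went through the same transfection, so no array shows untransfected cells, and a duplex at this dose is not the level of the cells' own miRNA.

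The star in the older name marks the minor arm of the hairpin, taken here as the 5p arm of MIR376A1. Its mature sequence is shown because it is the agent that was tested, with the seed, the stretch that pairs with target RNAs (bases 2 to 8), in capitals. It is credited to RefSeq on GRCh38.p14, at chr14:101040788-101040809 on the plus strand, and no sequence of the G form was used here.
hsa-miR-376a-5p: gUAGAUUCuccuucuaugagua

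Entry into mitosis is driven by cyclin A and cyclin B bound to the kinase CDK1, and Aurora and Polo kinases then build the spindle and prepare the chromosomes. The spindle checkpoint holds the anaphase-promoting complex back until every kinetochore is attached, after which cyclin B is destroyed and the cell divides. Transcripts of these genes are low in G1 and rise together late in the cell cycle, so in glioma as in other tumours their joint level is read as a mark of proliferating cells. The RNA came from whole cultures, so a larger share of cells in G2 or mitosis and more of these transcripts per cell cannot be told apart.

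The arrays differed little in brightness, with median deposited signals between 18.8 and 24.0, but miR-control replicate 1 stood apart. Its best rank correlation with any other array was 0.941, against 0.960 to 0.970 among the other 8 arrays, and its maximum signal was 7191, against 3601 to 4374. The ratio of the 3′ to the 5′ actin probe set, a measure of RNA integrity, was 0.912 on that array and 0.861 to 0.910 on the others. For GAPDH the ratio was 0.910, against 0.867 to 0.934. Values without this array stand beside many of the results, and the calls without it are counted further on. The mesenchymal glioma markers VIM, CD44 and CHI3L1 read between 1956 and 2716 on all 9 arrays, whereas the astrocyte markers GFAP, S100B and AQP4 and the glial factor OLIG2 lay below the filter, none above 11.6. Other astroglial genes passed it, among them SOX9 (354 to 522), SLC1A3 (90.0 to 123) and ALDH1L1 (23.9 to 77.4), so the astroglial markers were mixed. In all, 7 of 13 astroglial and glioma markers passed the filter, with summed signals of 7671 to 7853 with miR-376a*G, 7606 to 7790 with miR-376a*A and 7374 to 8106 in miR-control. Of 14 listed markers of other cell types, 7 passed, led by the collagen gene COL1A1, with sums of 3331 to 3535 with miR-376a*G, 3504 to 3657 with miR-376a*A and 3512 to 4076 in miR-control. EPCAM, PTPRC and SYP, which mark epithelial cells, blood cells and neurons, stayed at or under 11.6. Others of the same cell types passed the filter at low levels, namely KRT8 (48.0 to 68.6), MAP2 (36.4 to 72.9) and RBFOX3 (16.6 to 29.4), as did the endothelial marker PECAM1 (59.2 to 134). The listed fibroblast and muscle markers read higher, with COL1A1 at 2456 to 2791, DCN at 265 to 493 and ACTA2 at 274 to 567.

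Both forms of the miRNA were followed by higher signals of part of this gene group, and no member was called lower with either. With miR-376a*G, 10 of the 41 genes rose against miR-control and 0 fell (limma adjusted p under 0.05 over all genes), where 2.51% of all genes rose and 2.12% fell. With miR-376a*A, 7 rose and 0 fell, where 1.95% of all genes rose and 1.38% fell. The genes that rose with both forms were CCNA2, CDCA3, BUB1B, NDC80, PRC1 and MKI67, those called with miR-376a*G alone were CCNB2, BIRC5, CDCA8 and HJURP, and TOP2A was called with miR-376a*A alone. A call with 1 form alone does not show a difference between the forms, which is tested further on. Both comparisons share the 3 miR-control arrays, so they are not independent of each other.

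The median signal of the 41 genes was 621, 611 and 635 on the 3 miR-376a*G arrays, 566, 587 and 595 on the miR-376a*A arrays and 419, 426 and 492 on the miR-control arrays. The medians of the groups did not overlap, and miR-376a*A lay between the others. The median log2 fold change of the members was 0.35 with miR-376a*G and 0.20 with miR-376a*A, against 0.01 for all genes in each comparison. With miR-376a*G 37 of 41 members lay above 0, and with miR-376a*A 32 did, where 51.4% and 51.3% of all genes were above 0. All 3 miR-376a*G arrays exceeded all 3 miR-control arrays for 22 members and fell below them for 0, against 12.2% and 9.49% of all genes. For miR-376a*A the counts were 17 above and 1 below, against 11.5% and 8.95% of all genes. At an unadjusted p under 0.05 the members counted 24 with miR-376a*G and 15 with miR-376a*A, of 2231 and 1857 genes in all.

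**Figure D1:**
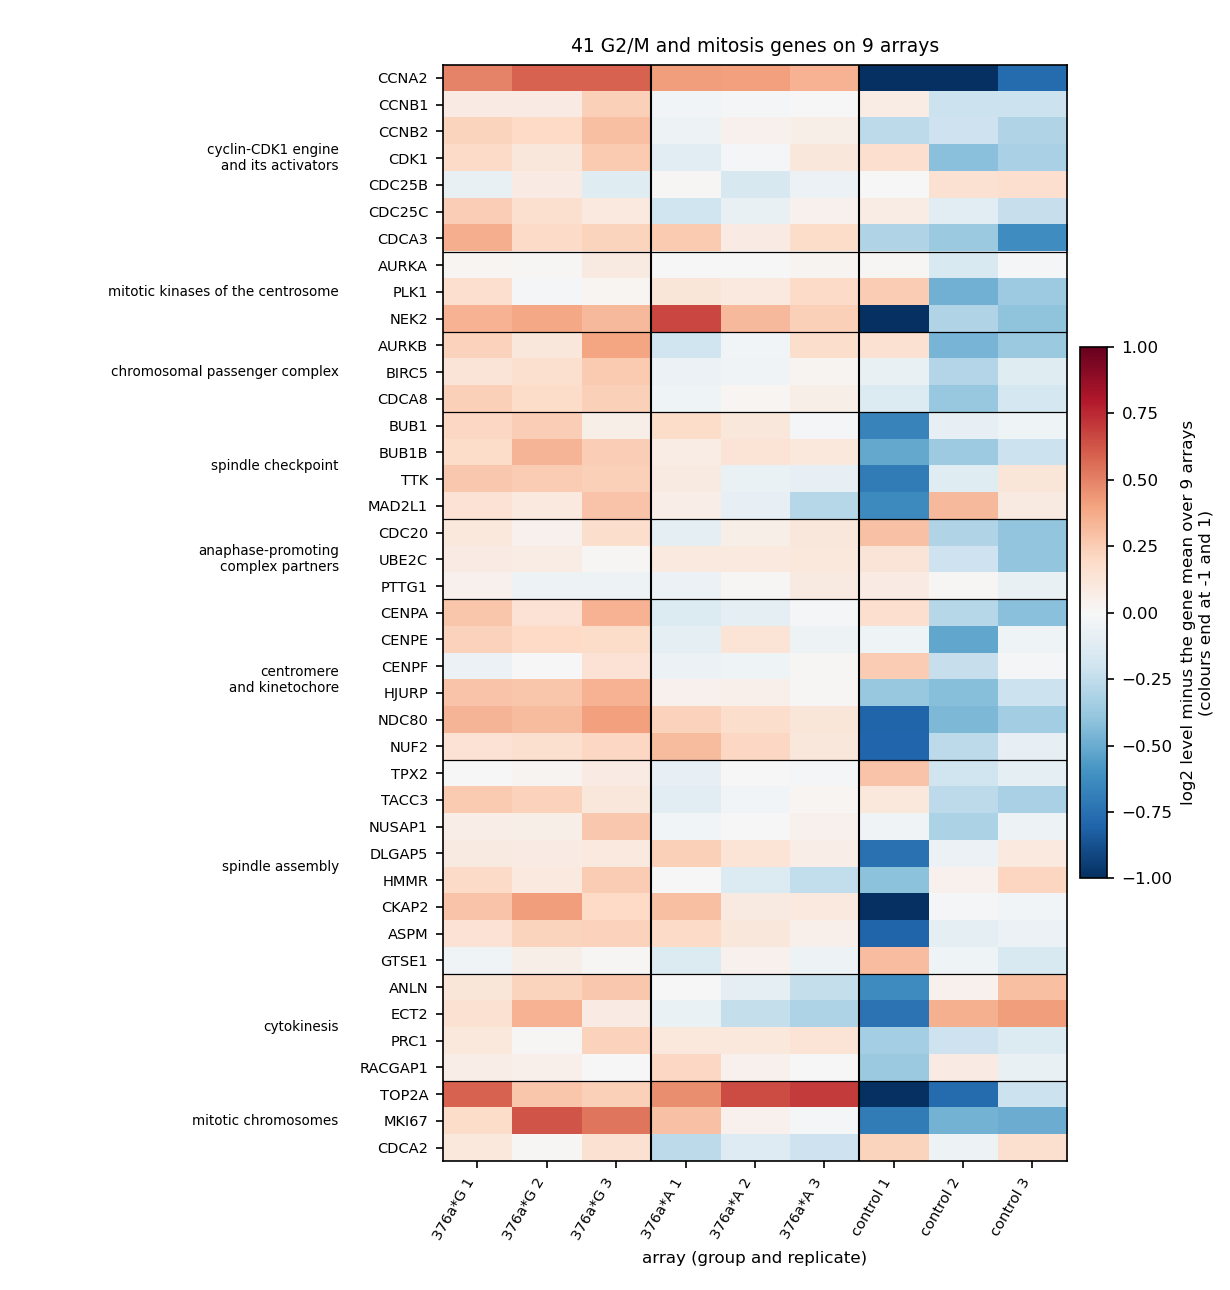
Heat map of the 41 genes (rows, by role) on the 9 arrays (columns: miR-376a*G, miR-376a*A, miR-control), coloured by log2 level minus the gene's mean over the 9 arrays, with colours ending at -1 and 1. Most rows are red with miR-376a*G, paler with miR-376a*A and blue in miR-control, while miR-control replicate 1 is dark blue for genes such as TOP2A and CKAP2 and red for genes such as PLK1 and CDC20.

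Promoters are shown for members that rose and, for contrast, for 1 that was not called. Late cell cycle promoters are known for the cell cycle genes homology region, the site of the MuvB complexes (DREAM, B-MYB and FOXM1), and for CCAAT boxes bound by NF-Y. RefSeq promoter windows (GRCh38.p14, 250 bases before to 50 after a start site) were matched for 34 of the 41 members, with 44 windows. The homology region was searched as TTTGAA or TTCGAA on both strands and the CCAAT box as CCAAT on both strands; a few matches overlap by a base or more, as in MKI67. Matches to the homology region stood in 29 of 44 member windows (65.9%), against 16.4% of 35116 windows in all. For CCAAT they stood in 32 (72.7%), against 34.6%, and both kinds in 24 (54.5%), against 6.38%. E2F letters (TTTCCCGC, TTTGGCGC, TTTCGCGC or TTTGCCGC) stood in 4 windows (9.09%), against 3.31%. Of the 9 matched genes called with miR-376a*G, 8 held the homology letters and 7 held CCAAT, and of the 24 matched genes called with neither form, 17 and 19 did, so the letters were common in members with and without a call. A match is a description of the letters and not a measured site. The stretches printed run from 150 bases before to 30 bases after the start site, with both motifs in capitals on either strand. CCNB2, CDCA3 and MKI67 were called with miR-376a*G. CCNA2 had the largest fold change with miR-376a*G, and its stretch held CCAAT letters and no match to TTTGAA or TTCGAA. Other variants of the homology letters were not searched, so this does not show that CCNA2 lacks the region. GTSE1 held both motifs while its signal differed little between groups. The stretches lie at chr15:59104996-59105175 (CCNB2, plus strand), chr12:6851257-6851436 (CDCA3, minus strand), chr10:128126394-128126573 (MKI67, minus strand), chr4:121823854-121824033 (CCNA2, minus strand) and chr22:46296720-46296899 (GTSE1, plus strand).
CCNB2: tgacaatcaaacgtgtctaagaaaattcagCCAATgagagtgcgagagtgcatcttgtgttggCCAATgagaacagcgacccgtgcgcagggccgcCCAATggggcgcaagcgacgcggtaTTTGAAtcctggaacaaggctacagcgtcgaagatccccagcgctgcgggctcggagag
CDCA3: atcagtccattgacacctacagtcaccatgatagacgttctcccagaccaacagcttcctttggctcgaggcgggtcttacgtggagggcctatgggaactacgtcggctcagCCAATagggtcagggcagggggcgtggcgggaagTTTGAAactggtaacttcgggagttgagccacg
MKI67: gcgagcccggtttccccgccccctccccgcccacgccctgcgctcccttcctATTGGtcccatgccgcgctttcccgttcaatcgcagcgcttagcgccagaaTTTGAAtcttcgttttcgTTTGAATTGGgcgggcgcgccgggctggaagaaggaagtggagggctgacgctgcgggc
CCNA2: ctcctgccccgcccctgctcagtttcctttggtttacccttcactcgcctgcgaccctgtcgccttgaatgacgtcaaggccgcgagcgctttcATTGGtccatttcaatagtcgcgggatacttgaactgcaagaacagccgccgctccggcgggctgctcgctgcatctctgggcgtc
GTSE1: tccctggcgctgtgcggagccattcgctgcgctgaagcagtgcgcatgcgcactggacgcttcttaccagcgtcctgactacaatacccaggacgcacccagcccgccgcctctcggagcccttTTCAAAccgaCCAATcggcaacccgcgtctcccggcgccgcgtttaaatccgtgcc

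Among the cyclins, CDK1 and its activators, 3 of 7 rose with miR-376a*G and 2 of 7 with miR-376a*A. CCNA2, cyclin A2, which partners CDK2 in S phase and CDK1 in G2, had normalized signals of 569, 606 and 608 with miR-376a*G, 537, 534 and 510.3 with miR-376a*A and 184, 187 and 227 in miR-control. No array of either form came near a control array. The means were 594 ± 22.1, 527 ± 14.5 and 199 ± 24.4 (SD, n = 3), and the log2 fold changes against miR-control were 1.51 (SE 0.10, limma adjusted p = 8.27e-05) with miR-376a*G and 1.34 (SE 0.10, adjusted p = 9.41e-05) with miR-376a*A. Its second probe set gave 362, 369.9 and 381 with miR-376a*G, 286, 307 and 297 with miR-376a*A and 105, 87.8 and 90.1 in miR-control, with changes of 1.81 and 1.51. Cyclin A2 was thus 2.84-fold higher with miR-376a*G and 2.53-fold higher with miR-376a*A, on the log2(signal + 16) scale, and miR-control replicate 1 lay close to the other controls for it.

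CCNB2, cyclin B2, a CDK1 partner at the Golgi, had 966, 949.6 and 1018 with miR-376a*G, 793, 848 and 859 with miR-376a*A and 684, 712 and 664 in miR-control. The 3 groups formed steps with no overlap. Its change was 0.50 (SE 0.07, limma adjusted p = 0.0038) with miR-376a*G and 0.27 (SE 0.07, adjusted p = 0.0821) with miR-376a*A, which passed without miR-control replicate 1 (0.27, adjusted p = 0.024). CDCA3, a trigger of mitotic entry that promotes destruction of the CDK1-inhibiting kinase WEE1, had 720.1, 638 and 651 with miR-376a*G, 669, 589 and 633 with miR-376a*A and 449, 426 and 355 in miR-control. The forms overlapped each other and both stood above every control array. Its changes were 0.69 (SE 0.11, adjusted p = 0.00535) with miR-376a*G and 0.60 (SE 0.11, adjusted p = 0.0127) with miR-376a*A, and its second probe set gave 1.09 and 0.97, both past the threshold.

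The kinase CDK1 itself had 1058, 1004 and 1108 with miR-376a*G, 859, 919 and 999 with miR-376a*A and 1042, 688 and 737 in miR-control, where replicate 1 alone reached the level of the miRNA arrays. Its change of 0.38 (SE 0.14, limma adjusted p = 0.175) with miR-376a*G did not pass, and without miR-control replicate 1 it was 0.54 (SE 0.08, adjusted p = 0.000745). Of its 3 other passing probe sets, 1 had 751, 749.6 and 791 with miR-376a*G, 597, 639 and 594 with miR-376a*A and 274, 506 and 522 in miR-control. On that probe set replicate 1 was the lowest control array, and the change of 0.85 with miR-376a*G passed (adjusted p = 0.0434 over probe sets). The remaining CDK1 probe sets gave 0.39 and 0.06 with miR-376a*G and did not pass (adjusted p = 0.223 and 0.902). Without replicate 1 they gave 0.58 (adjusted p = 0.00112) and -0.11. CCNB1, cyclin B1, stood above every control array with miR-376a*G (0.26, adjusted p = 0.133) and gave 0.11 with miR-376a*A. Without miR-control replicate 1 both passed, at 0.34 (adjusted p = 0.00271) and 0.19 (adjusted p = 0.0498). The other passing CCNB1 probe set gave 0.56 with miR-376a*G and 0.42 with miR-376a*A from all arrays, neither past the threshold. Without replicate 1 these shrank to 0.18 (adjusted p = 0.193 over probe sets) and 0.03 (adjusted p = 0.839). Leaving out that array thus raised the CCNB1 changes on the brightest probe set and lowered them on the other. The phosphatases that activate CDK1 did not pass with either form: CDC25C gave 0.26 with miR-376a*G and 0.01 with miR-376a*A, and CDC25B gave -0.14 and -0.17.

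Of the mitotic kinases at the centrosome, none of AURKA, PLK1 and NEK2 was called. NEK2, which splits the duplicated centrosomes, had 251, 258 and 246 with miR-376a*G, 317, 246 and 231 with miR-376a*A and 53.0, 154 and 142 in miR-control. The miRNA arrays lay above all controls, and replicate 1 was far below the other controls. With 9 arrays the changes were 1.12 (SE 0.29, limma adjusted p = 0.0598) and 1.18 (SE 0.29, adjusted p = 0.061), and without that array they were smaller and passed, at 0.71 (SE 0.12, adjusted p = 0.00231) and 0.76 (SE 0.12, adjusted p = 0.0016). A second NEK2 probe set passed with all arrays, at 0.91 and 0.76. PLK1, the Polo kinase, gave 0.25 and 0.33 with all arrays, and 0.48 and 0.56, past the threshold, without replicate 1. AURKA, which matures centrosomes, gave 0.09 with miR-376a*G and 0.06 with miR-376a*A. Its second probe set, nearly as bright, gave 0.37 (adjusted p = 0.0542 over probe sets) and 0.27 (adjusted p = 0.177), and with miR-376a*G it passed without replicate 1 (0.28, adjusted p = 0.0237).

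The chromosomal passenger complex corrects wrong attachments of chromosomes and later steers cytokinesis. Its targeting subunits BIRC5 (survivin) and CDCA8 (borealin) both rose with miR-376a*G, and neither passed with miR-376a*A, though CDCA8 did without miR-control replicate 1 (0.29, limma adjusted p = 0.0356). BIRC5 had 862, 881 and 943 with miR-376a*G, 754, 768 and 802 with miR-376a*A and 746, 638 and 722 in miR-control. CDCA8 had 631, 606 and 629.7 with miR-376a*G, 515, 538 and 554 with miR-376a*A and 483, 405 and 467 in miR-control. For both genes the groups did not overlap, and miR-376a*A lay between the others. The changes with miR-376a*G were 0.35 (SE 0.08, limma adjusted p = 0.0449) for BIRC5 and 0.45 (SE 0.09, adjusted p = 0.0225) for CDCA8, and both were lost with the replicate number as a block (adjusted p = 0.081 and 0.0574). The 3 other BIRC5 probe sets gave -0.07 to 0.31 with miR-376a*G, none past the threshold. The kinase of the complex, AURKB, had 217, 198 and 244 with miR-376a*G, 156, 178 and 207 with miR-376a*A and 204, 128 and 137 in miR-control, with a change of 0.47 (adjusted p = 0.179) for miR-376a*G that read 0.67 (adjusted p = 0.00375) without miR-control replicate 1.

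In the spindle checkpoint, BUB1B (BubR1), which with MAD2 restrains the anaphase-promoting complex, was the 1 of 4 genes that rose, with both forms. Its signals were 249, 280.0 and 260.5 with miR-376a*G, 229, 241 and 236 with miR-376a*A and 147, 165 and 185 in miR-control. The controls lay below all miRNA arrays. The change was 0.62 (SE 0.11, limma adjusted p = 0.0114) with miR-376a*G and 0.47 (SE 0.11, adjusted p = 0.0498) with miR-376a*A. The checkpoint kinases BUB1 and TTK had fold changes of 0.44 and 0.49 with miR-376a*G that shrank to 0.24 and 0.25 without miR-control replicate 1, in each case short of the threshold. MAD2L1 (MAD2) had 874, 846 and 968 with miR-376a*G, 827, 746 and 645 with miR-376a*A and 504, 993 and 840.2 in miR-control, so the range of the controls took in all the miRNA arrays.

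None of the partners of the anaphase-promoting complex passed with 9 arrays. CDC20, its mitotic activator, had 943, 905 and 995 with miR-376a*G, 820.4, 914 and 948 with miR-376a*A and 1076, 707 and 663 in miR-control. The highest control array was again replicate 1, and without it the changes were 0.45 (limma adjusted p = 0.00253) with miR-376a*G and 0.37 (adjusted p = 0.00897) with miR-376a*A, against 0.24 and 0.16 with it. UBE2C, the ubiquitin-conjugating enzyme of the complex, behaved likewise, at 0.21 and 0.26 with the array and 0.34 and 0.38, past the threshold, without it. PTTG1, the securin that holds separase in check, was the brightest gene of the group and gave -0.02 and 0.01, with means of 2205 ± 82.3 with miR-376a*G, 2260.1 ± 117 with miR-376a*A and 2245 ± 120.0 in miR-control (SD, n = 3).

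At the centromere and kinetochore, NDC80 rose with both forms and HJURP passed with miR-376a*G. NDC80, the microtubule-binding core of the kinetochore, had 397, 391 and 419 with miR-376a*G, 367, 354 and 339.6 with miR-376a*A and 172, 223 and 241 in miR-control. The groups formed separate steps, with the largest gap below the forms. The changes were 0.89 (SE 0.13, limma adjusted p = 0.00338) and 0.71 (SE 0.13, adjusted p = 0.0123), and 0.75 and 0.57 without miR-control replicate 1. HJURP, the chaperone that places the centromeric histone CENP-A, had 418, 415 and 437 with miR-376a*G, 349.8, 352 and 343 with miR-376a*A and 258, 248 and 291 in miR-control. Again the groups did not overlap, and its change was 0.64 (SE 0.10, adjusted p = 0.00433) with miR-376a*G and 0.37 (SE 0.10, adjusted p = 0.0733) with miR-376a*A, which passed without replicate 1 (0.35, adjusted p = 0.0189). NUF2, the direct partner of NDC80, gave 0.55 and 0.59, with adjusted p = 0.102 and 0.0996, and passed with both forms without replicate 1 (0.34 and 0.38), a call that the replicate block then took away with miR-376a*G. CENPE, a kinetochore motor, and CENPA gave 0.41 and 0.44 with miR-376a*G and 0.20 and 0.10 with miR-376a*A, while CENPF gave 0.02 and -0.04.

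None of the 8 spindle assembly genes was called with either form when all arrays were used, with fold changes from -0.02 (GTSE1) to 0.76 (CKAP2) for miR-376a*G. CKAP2, a microtubule stabiliser, had 410.3, 453 and 386 with miR-376a*G, 417, 358 and 359.6 with miR-376a*A and 121, 333 and 328 in miR-control. It stood above all controls with both forms, by a wide margin only for replicate 1, and its change with miR-376a*G was 0.31 without that array (limma adjusted p = 0.043), a call lost when the replicate block was added. ASPM, a spindle pole protein, gave 0.52 with miR-376a*G and 0.44 with miR-376a*A, and 0.28 and 0.20 without the array. DLGAP5 (HURP) gave 0.33 and 0.38, and 0.07 and 0.13 without it. TACC3 and NUSAP1, which bind spindle microtubules, lay above every control array with miR-376a*G (0.36 and 0.27), and TPX2, an activator of Aurora A, gave 0.04 with miR-376a*G and -0.03 with miR-376a*A.

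For cytokinesis, PRC1, which bundles the microtubules of the central spindle, rose with both forms. It had 1131, 1057 and 1234 with miR-376a*G, 1127, 1129 and 1152 with miR-376a*A and 824, 905 and 953 in miR-control. The forms were level with each other and above all controls, by 0.35 (SE 0.08, limma adjusted p = 0.0376) and 0.34 (SE 0.08, adjusted p = 0.0487), and the call with miR-376a*G was lost with the replicate number as a block (adjusted p = 0.0602). ECT2, the exchange factor that activates RhoA at the cleavage furrow, went another way. Its signals were 621, 714 and 589.7 with miR-376a*G, 532, 469.6 and 446 with miR-376a*A and 327, 716 and 748 in miR-control. Replicates 2 and 3 of the control exceeded every miR-376a*A array while replicate 1 lay below them all. With 9 arrays the ECT2 change with miR-376a*A was -0.21 (adjusted p = 0.767), and without replicate 1 it was -0.58 (SE 0.10, adjusted p = 0.00258), the 1 member called lower in that fit. RACGAP1, the partner of ECT2 at the central spindle, gave 0.16 with miR-376a*G and 0.20 with miR-376a*A, and 0.03 and 0.08 without replicate 1.

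Among mitotic chromosome genes, MKI67 and TOP2A had large fold changes. MKI67, the Ki-67 antigen that coats mitotic chromosomes and is stained to grade gliomas, had 221, 306 and 286 with miR-376a*G, 240.1, 199 and 191 with miR-376a*A and 113, 134 and 132 in miR-control. All arrays of both forms exceeded all controls, and the forms overlapped. The changes were 1.00 (SE 0.15, limma adjusted p = 0.0038) with miR-376a*G and 0.66 (SE 0.15, adjusted p = 0.0357) with miR-376a*A. Its 3 other probe sets gave 0.26, 0.58 and 0.36 with miR-376a*G, of which 0.58 passed, and 0.26, 0.38 and 0.16 with miR-376a*A, so the brightest probe set read the highest. TOP2A, the DNA topoisomerase that untangles sister chromosomes, had 873, 699 and 680.4 with miR-376a*G, 797, 911 and 939 with miR-376a*A and 138, 329 and 492 in miR-control. The controls were spread more than 3-fold but stayed below every miRNA array. Its change was 1.35 (SE 0.34, adjusted p = 0.0535) with miR-376a*G and 1.58 (SE 0.34, adjusted p = 0.0334) with miR-376a*A. Without miR-control replicate 1, the lowest of the controls, the changes were smaller and both passed, at 0.85 (SE 0.15, adjusted p = 0.00341) and 1.08 (SE 0.15, adjusted p = 0.000885). A second TOP2A probe set, with 573, 582 and 578 with miR-376a*G, 631, 634 and 523 with miR-376a*A and 222, 267 and 274 in miR-control, gave 1.14 (adjusted p = 0.000486) and 1.18 (adjusted p = 0.000375). CDCA2, which recruits a phosphatase to chromosomes at mitotic exit, gave -0.02 with miR-376a*G and was the 1 member whose miR-376a*A arrays (256, 282 and 266) all lay below the controls (365, 298 and 347), with a change of -0.31 (adjusted p = 0.194).

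**Figure D2:**
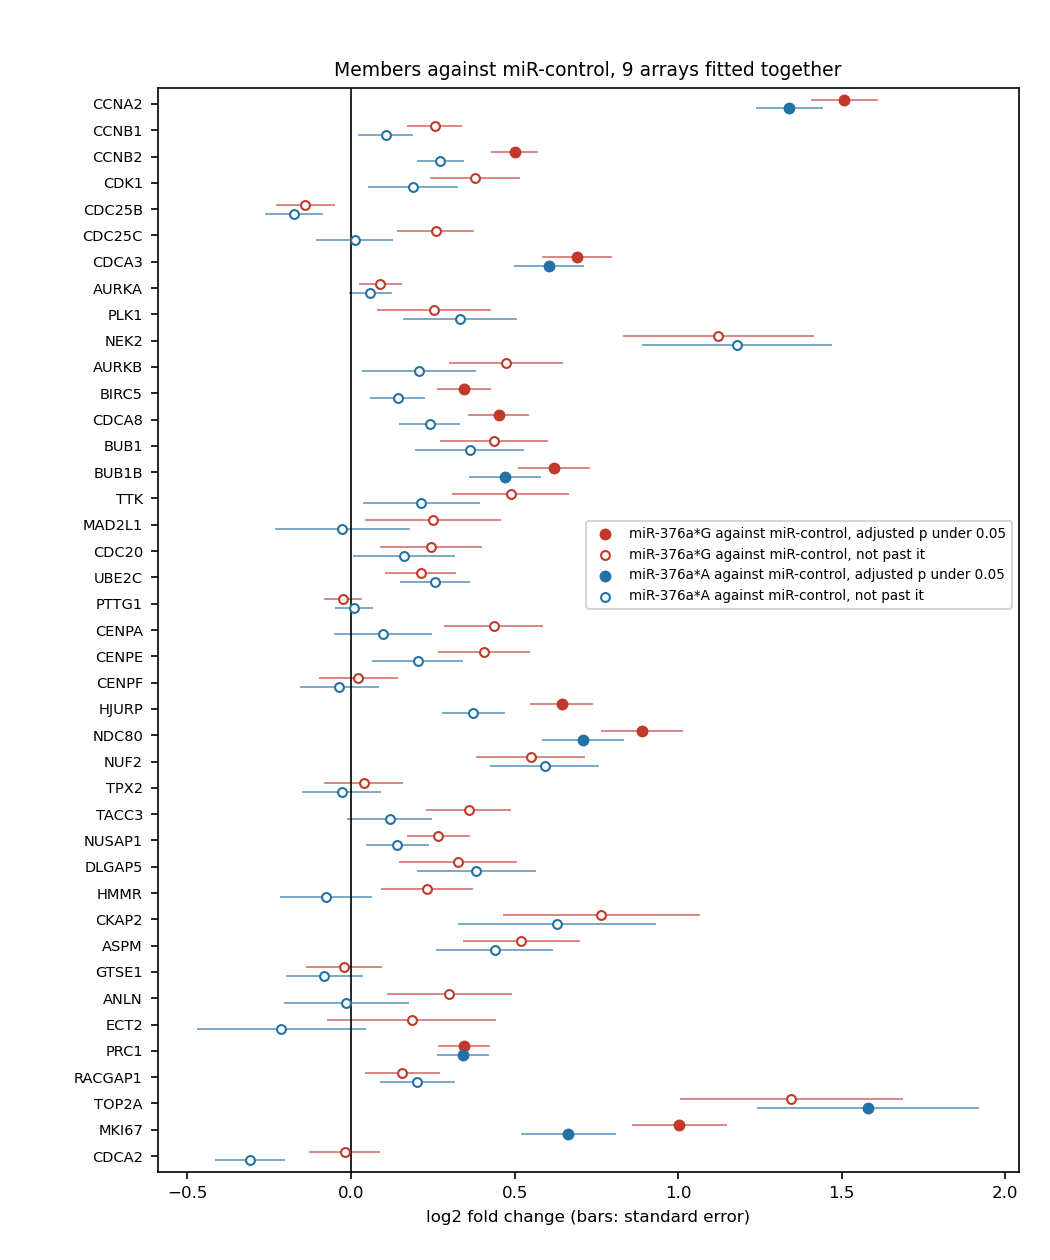
Log2 fold change against miR-control of each of the 41 genes with miR-376a*G (red) and miR-376a*A (blue), from the fit of 9 arrays; bars are standard errors and filled points passed limma's adjusted p of 0.05. CCNA2 and TOP2A lie farthest right with both forms, and 37 red and 32 blue points lie above 0.

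**Figure D3:**
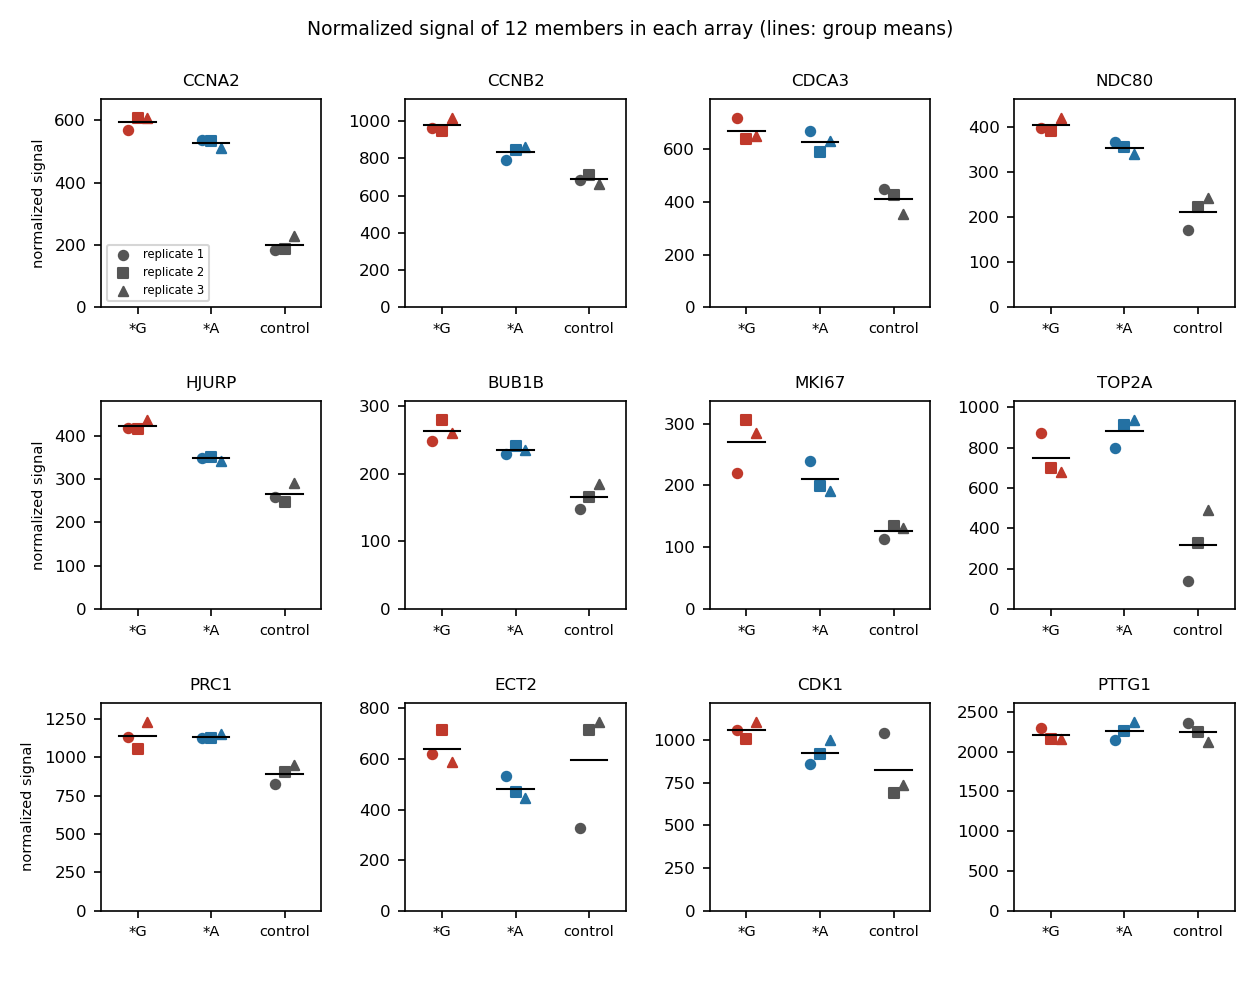
Normalized signal (linear scale from 0) of 12 members on each array, in the order miR-376a*G, miR-376a*A and miR-control; marker shape gives the replicate number and lines are group means. CCNB2 and HJURP fall in 3 separate steps, PTTG1 is level, and miR-control replicate 1 (circle) departs from the other controls for TOP2A, ECT2 and CDK1.

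Leaving out miR-control replicate 1 raised the number of members called. With miR-376a*G 26 of 41 then rose and 0 fell, where 8.51% of all genes rose and 8.49% fell, and the 26 held all 10 genes called before. With miR-376a*A 17 rose, where 6.95% of all genes did, among them the 7 called before, and 1 fell (ECT2), where 6.41% did. The 17 genes all belonged to the 26, and the 9 called with miR-376a*G alone were CDC25C, AURKB, BIRC5, CENPA, CENPE, TACC3, NUSAP1, CKAP2 and ASPM. With the replicate number as a block as well, 22 rose with miR-376a*G, where 7.26% of all genes did and 7.3% fell, and CDC25C, NUF2, CKAP2 and ASPM were lost. The median fold change hardly moved, at 0.34 with miR-376a*G and 0.20 with miR-376a*A. By contrast, leaving out miR-376a*G replicate 2 or 3 left 6 calls with miR-376a*G. With miR-376a*A there were 1, 2 and 1 calls without miR-376a*A replicate 1, 2 and 3, and 4, 3 and 4 without miR-376a*G replicate 1, 2 and 3. Without miR-control replicate 2 there were 4, of which 3 were among the 7 and NEK2 was gained, and without replicate 3 there were 8, of which 6 were among the 7. Apart from the fits without miR-control replicate 1, shares of all genes are not given for these leave-out fits. Their counts thus do not show how the members compared with all genes. With the replicate number as a block and all 9 arrays, 7 of the 10 calls with miR-376a*G remained, where 1.42% of all genes rose and 1.46% fell. CCNA2, NDC80 and MKI67 passed with miR-376a*G in 21 of the 21 other settings run and CCNB2, CDCA3 and HJURP in 20. BUB1B passed in 17, CDCA8 in 12, PRC1 in 7 and BIRC5 in 5. With miR-376a*A, CCNA2 passed in 20 of the 21, CDCA3 in 17 and NDC80 in 16, but TOP2A in 10, MKI67 and PRC1 in 8 and BUB1B in 7.

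On miR-control replicate 1, 21 members lay below the mean of the other controls and 20 above it, and more read low than high only among the larger departures. There, 12 members (29.3%) lay more than 0.5 (log2) under the mean of the other controls and 5 (12.2%) lay more than 0.5 over it, where 17.1% and 17.6% of all genes did. The range ran from -1.45 for TOP2A to 0.67 for PLK1, and the array was the lowest of all 9 for 18 members, or 43.9%, against 29.5% of all genes. The median SD of the members within a group was 0.07 with miR-376a*G, 0.08 with miR-376a*A and 0.24 in miR-control, or 0.09 in the control replicates 2 and 3 alone. For all genes it was 0.10, 0.09 and 0.24, or 0.10 in control replicates 2 and 3, so the wider spread of the controls was not particular to the members. Probe sets of 1 gene parted on this array. For CCNB1, the brightest read 0.29 over the other controls and a second one 1.16 under them, and for CDK1 the 4 passing probe sets ran from -0.87 to 0.62. What set the array apart was not tested.

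**Figure D4:**
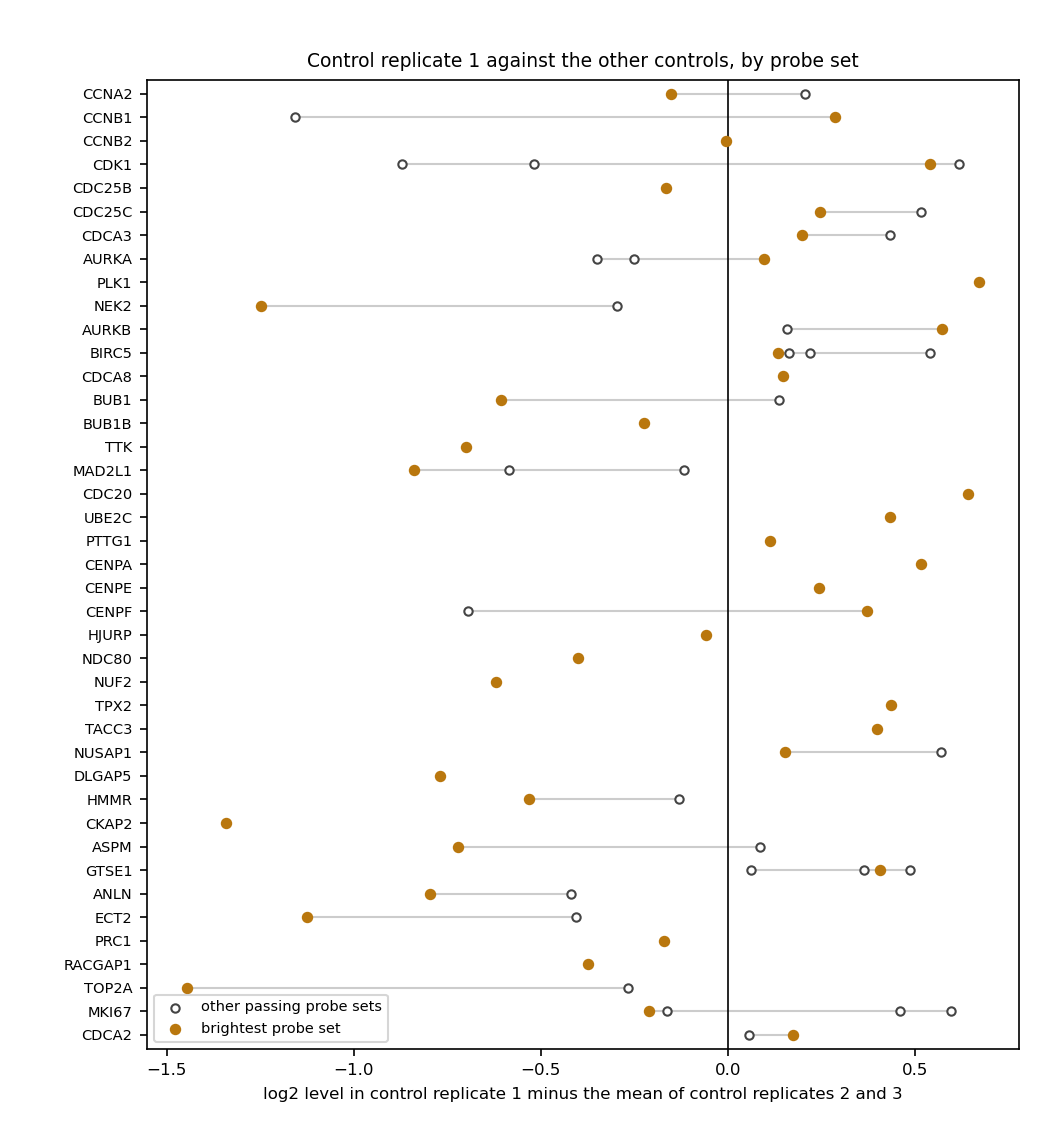
Log2 level in miR-control replicate 1 minus the mean of miR-control replicates 2 and 3, for the brightest probe set of each gene (filled) and its other passing probe sets (open), joined by a line. Probe sets of CCNB1, CDK1 and CENPF lie on both sides of 0, and the brightest probe sets span -1.45 (TOP2A) to 0.67 (PLK1).

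The other probe sets bore on the calls gene by gene. The members had 85 probe sets, 72 of them above the filter, and 21 members had more than 1 above it. Of the 31 other passing probe sets, 25 had the sign of the brightest one with miR-376a*G and 26 with miR-376a*A. Of these 31, 6 were called higher with miR-376a*G and 0 lower, for CCNA2, CDK1, CDCA3, NEK2, TOP2A and MKI67, where 2.12% of 22890 probe sets were called higher and 1.65% lower. With miR-376a*A 4 were called higher and 0 lower, for CCNA2, CDCA3, NEK2 and TOP2A, against 1.64% and 1.18%. CDK1 and NEK2 thus passed on a dimmer probe set and not on the brightest, as did TOP2A with miR-376a*G.

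Set against each other directly, the forms differed in the same direction for most members, by small amounts. With miR-376a*G 33 of 41 lay above miR-376a*A, with a median of 0.15 (-0.00042 for all genes), and 21 members had all 3 miR-376a*G arrays above all 3 miR-376a*A arrays, where 15.4% of all genes did. UBE2C alone had them below, where 14.1% did. No member passed limma's test in either direction with 9 arrays (0 higher and 0 lower, against 1.23% and 1.38% of all genes), and 7 had an unadjusted p under 0.05, as did 1336 of all genes. Without miR-control replicate 1, which takes no part in this contrast but adds to the shared estimate of the spread, 7 rose and 0 fell, where 4.59% and 5.13% of all genes did. These were CCNB2, CENPA, HJURP, HMMR, ANLN, ECT2 and CDCA2. The fit of only the 6 arrays of both forms called 8 members higher, where 4.89% of all genes were higher and 5.38% lower, and array weights called 12, where 6.3% were higher and 6.95% lower. Neither called a member lower.

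The differences of these 7 genes ran from 0.22 to 0.39 without that array. Against miR-control in that fit, HMMR, ANLN and CDCA2 gave 0.05, 0.03 and 0.04 with miR-376a*G. With miR-376a*A they gave -0.24, -0.27 and -0.25. ECT2 gave -0.19 with miR-376a*G and -0.58 with miR-376a*A. CCNB2, CENPA and HJURP gave 0.49, 0.61 and 0.62 with miR-376a*G and 0.27, 0.27 and 0.35 with miR-376a*A. HMMR, a receptor of hyaluronan that also binds the spindle, had 1135, 1058 and 1181 with miR-376a*G and 986, 899 and 834 with miR-376a*A, a difference of 0.31 (SE 0.14, limma adjusted p = 0.479) with 9 arrays and 0.30 (SE 0.07, adjusted p = 0.0252) without the control array. Its second probe set, with 984, 915 and 1024 with miR-376a*G and 699.8, 668 and 681 with miR-376a*A, gave 0.50 (SE 0.08, adjusted p = 0.0117) with all 9 arrays and was the 1 probe set of a member called in this contrast, where 0.983% of probe sets were called higher. For both probe sets every miR-376a*G array exceeded every miR-376a*A array. On the dimmer one the controls read 808, 836 and 942, above every miR-376a*A array. There the change with miR-376a*A against miR-control was -0.33 (limma adjusted p = 0.0736 over probe sets). Without miR-control replicate 1 it was -0.36 (adjusted p = 0.00875). ECT2 differed by 0.39 (SE 0.09, adjusted p = 0.0143) without the control array, and its second probe set by 0.25, short of the threshold. ANLN, which links actin and myosin at the furrow, had 1083, 1163 and 1198 with miR-376a*G and 996, 927 and 840.2 with miR-376a*A, a difference of 0.30 (SE 0.08, adjusted p = 0.0349) without the array, and its second probe set gave 0.37 (adjusted p = 0.0148). CENPA, the centromeric histone, had 241, 218 and 253 with miR-376a*G and 176, 183 and 194 with miR-376a*A, and differed by 0.34 (SE 0.08, adjusted p = 0.0249) without the array. TOP2A (-0.23) and PLK1 (-0.08) lay on the other side, with overlapping arrays.

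**Figure D5:**
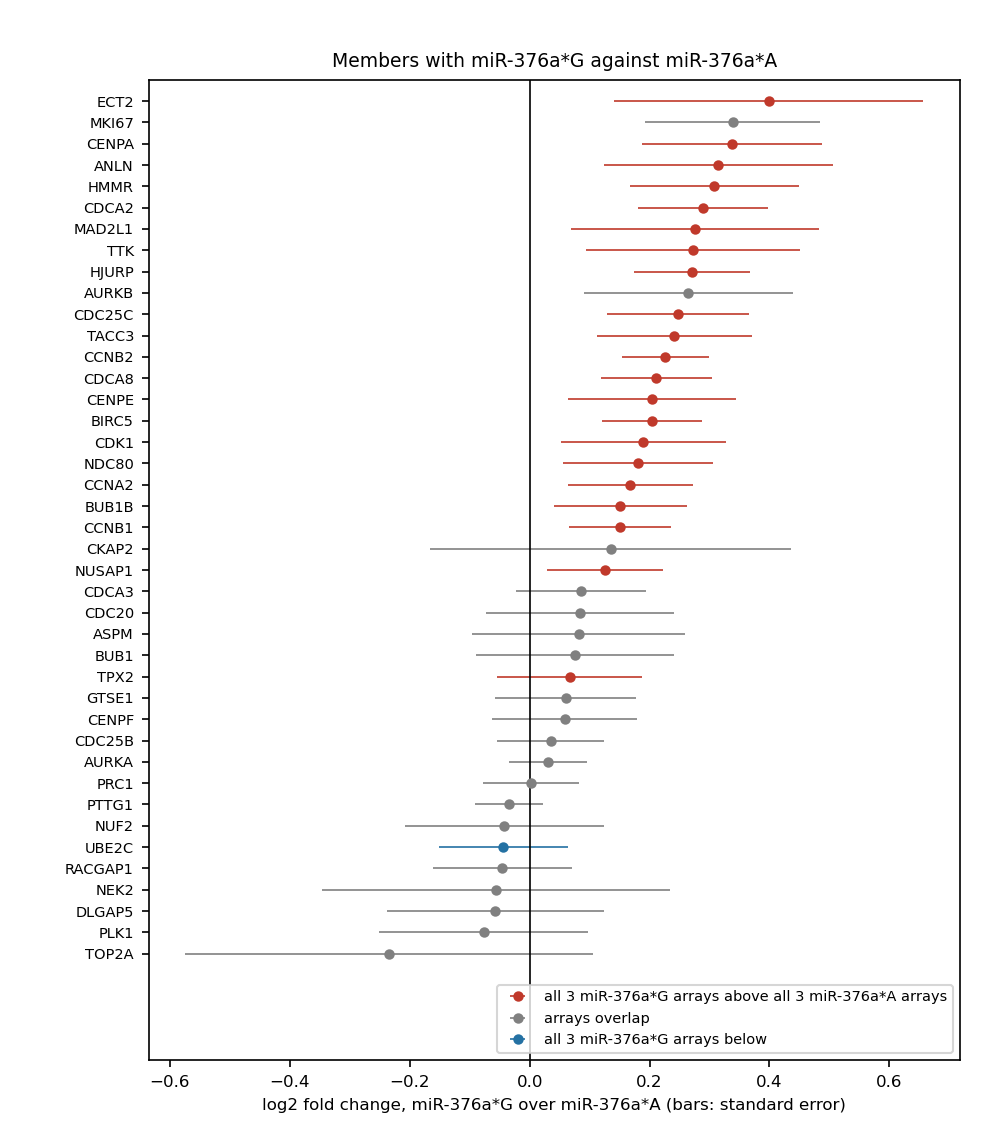
Log2 fold change of miR-376a*G over miR-376a*A for the 41 genes, sorted, from the fit of 9 arrays; bars are standard errors, red marks genes whose 3 miR-376a*G arrays all exceed the 3 miR-376a*A arrays and blue the reverse. The points run from -0.23 (TOP2A) to 0.40 (ECT2), with 33 of 41 above 0.

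Of 59 further measured genes of mitosis, 9 rose and 0 fell with miR-376a*G, and 3 rose and 1 fell with miR-376a*A, beside 2.51% and 2.12% of all genes with miR-376a*G and 1.95% and 1.38% with miR-376a*A. Without miR-control replicate 1 the counts were 19 and 1 with miR-376a*G and 8 and 4 with miR-376a*A, beside 8.51%, 8.49%, 6.95% and 6.41% of all genes. The mitotic kinase PBK rose by 0.78 with miR-376a*G and 0.57 with miR-376a*A, the centromere protein CENPN by 0.97 and 0.90, and the kinetochore scaffold KNL1 by 0.96 and 1.06, all past limma's threshold (adjusted p at most 0.0268). ESPL1, the separase that cuts cohesin, rose by 0.54 with miR-376a*G. MELK, a kinase abundant in dividing glioma cells, fell by 1.31 (SE 0.18, adjusted p = 0.00304) with miR-376a*A and gave 0.01 with miR-376a*G. In the direct comparison it was 1.32 higher with miR-376a*G (SE 0.18, adjusted p = 0.00302), and the centromere protein OIP5 (0.54) and the condensin subunit NCAPH (0.66) were higher too, 3 of 59 with 0 lower. The median of the list was 0.27 with miR-376a*G, 0.10 with miR-376a*A and 0.08 between the forms, next to 0.35, 0.20 and 0.15 for the 41 genes.

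Among 18 measured regulators of late cell cycle transcription, 1 rose with miR-376a*G and 2 with miR-376a*A, and 0 fell, beside the same shares of all genes. Without miR-control replicate 1, 1 rose and 2 fell with miR-376a*G, beside 8.51% and 8.49% of all genes. With miR-376a*A, 4 rose and 1 fell in that fit, beside 6.95% and 6.41%. E2F2 rose by 0.81 (SE 0.10, limma adjusted p = 0.00201) with miR-376a*G and 0.66 (SE 0.10, adjusted p = 0.00706) with miR-376a*A, and E2F8, a repressor of the family, rose by 0.71 with miR-376a*A (adjusted p = 0.0309). FOXM1, an activator of G2 genes, gave 0.39 and 0.49 without passing (adjusted p = 0.155 and 0.0969), and without that array it gave 0.23 (adjusted p = 0.0701) and 0.32 (adjusted p = 0.0196). The list's median was 0.05 with miR-376a*G and 0.10 with miR-376a*A.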

How the data were processed

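The intensities deposited by the authors are on a linear scale and cover 54675 probe sets on each of 9 arrays; per the submitters' processing notes, GCOS version 1.4.0.036 was used. The trimmed mean of each array was 100.01 to 100.013, so a common scaling preceded deposit; the summary of probes and any genome build were not given in the sources used here. Intensities were turned into log2(signal + 16), which understates changes of dim genes, and quantile normalized; a normalized signal is that value turned back to the linear scale minus 16. Probe sets annotated to 1 gene (41091) and at or above the 50th percentile of mean level (5.17, log2) were kept, and each gene took its brightest. Groups were compared in R 4.3.3 with limma 3.58.1 (lmFit, eBayes with an intensity trend), with 9 arrays in 1 fit and Benjamini-Hochberg adjustment over 12505 genes. An exact test of 3 against 3 arrays cannot go below p = 0.1, and the number of arrays limits the precision.

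The members and lists were chosen with earlier results of these data known, so no test over a list was made. All members may be named, and from each other list at most 4 genes a comparison, those with the smallest adjusted p among the called and otherwise the smallest p. Same-numbered arrays of miR-376a*G and miR-control deviated together from their group means (r = 0.125 to 0.187, all over the limit of 0.1), so the replicate block is given there where it changes a call. Arrays of these groups with different numbers gave -0.285 to 0.140, which overlaps that range, so the pairing is weak and not established. No label says what same-numbered arrays share. The other pairs of groups did not pass this check (-0.361 to 0.0315 for miR-376a*A and miR-control, -0.0984 to -0.0314 between the forms). Alternatives were other normalizations, pseudocounts, filters and probe set rules, fits of 6 arrays, array weights, the replicate block, no intensity trend, and leaving out each array with each gene's probe set kept. The procedure was tested on simulated data.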

Additional observations from a re-analysis of the deposited data

How the results depend on the processing

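The median fold change of the 41 genes kept its sign in each alternative run, at 0.32 to 0.42 with miR-376a*G, 0.17 to 0.29 with miR-376a*A and 0.13 to 0.18 between the forms, and no called gene changed sign. The counts of members called higher moved more. With miR-376a*G the count of 10 became 6 with only the 6 arrays compared, where 0.84% of all genes rose, and 28 with array weights, where 10.4% rose. With the replicate block it was 7, where 1.42% of all genes rose, or 3 when only the 6 arrays compared were used. It was 22 with the block without miR-control replicate 1, where 7.26% rose, a setting chosen after seeing the data. Leaving out 1 array gave 6 to 26. With miR-376a*A the count of 7 became 4 with no normalization, 3 with no filter and 1 to 17 leaving out 1 array. It was 1 with only the 6 arrays, where 0.632% of all genes rose, and 21 with array weights, where 10.2% rose. With the replicate block it was 3, where 1.3% of all genes rose, then 0 with only the 6 arrays. It was 15 with the block without miR-control replicate 1, where 5.32% rose, but the replicate numbers of these groups share no pairing in the data. Members called lower with miR-376a*A numbered 3 with array weights, where 8.26% of all genes fell. They numbered 1 without miR-control replicate 1, with or without the block, where 5.09% and 6.41% fell. Between the forms the count of 0 became 8 with only the 6 arrays, where 4.89% of all genes rose, and 12 with array weights, where 6.3% rose. It was 4 with the block and the 6 arrays, 2 with the block without miR-control replicate 1, where 3.94% rose, and 0 to 7 leaving out 1 array. Where no share of all genes stands beside a count, the count does not show how the members compared with all genes. The cause of these shifts was not tested, though fits of 6 or 8 arrays have fewer arrays to estimate the spread. Over all genes, calls higher with miR-376a*G were 314, or 105 with 6 arrays, 177 with the replicate block and 1064 without miR-control replicate 1. With 3 arrays a group, small changes of single genes were often short of the threshold, and no detection calls were used.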

Other observations

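Genes of neighbouring cell cycle phases were read from lists of their own. Of 36 measured genes of DNA replication and S phase, 5 rose and 0 fell with miR-376a*G, and 3 rose and 0 fell with miR-376a*A (limma, adjusted over all genes), beside 2.51% and 2.12% of all genes with miR-376a*G and 1.95% and 1.38% with miR-376a*A. CCNE1, cyclin E1, which fires the G1 to S transition with CDK2, rose by 0.72 (SE 0.11, adjusted p = 0.00439) with miR-376a*G and 0.89 (SE 0.11, adjusted p = 0.00153) with miR-376a*A. Without miR-control replicate 1, 13 of the 36 rose with miR-376a*G and 10 with miR-376a*A, beside 8.51% and 6.95% of all genes, and 0 fell with either form, beside 8.49% and 6.41%. The list's medians were 0.22 with miR-376a*G and 0.14 with miR-376a*A.

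Of 11 measured G1 cyclins, kinases and CDK inhibitors, CDK6, a kinase that starts phosphorylation of the retinoblastoma protein, rose by 1.26 (SE 0.13, adjusted p = 0.000539) with miR-376a*G and 1.15 (SE 0.13, adjusted p = 0.000943) with miR-376a*A in limma. CDKN1A, the CDK inhibitor p21, rose by 0.53 (SE 0.11, adjusted p = 0.0323) with miR-376a*A and gave 0.10 with miR-376a*G. The direct difference of miR-376a*G over miR-376a*A for CDKN1A was -0.43 (SE 0.11, adjusted p = 0.101) with 9 arrays and -0.43 (adjusted p = 0.00767) without miR-control replicate 1.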
